A study of Mus musculus with 24 samples.

Results

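Glutathione S-transferases (GSTs) were followed in mouse liver during partial hepatic ischemia. The 10 listed genes were Gsta2, Gsta3 and Gsta4 of the alpha class, Gstm1, Gstm2, Gstm3 and Gstm4 of the mu class, Gstp1 of the pi class, Gstt1 of the theta class and Gstz1 of the zeta class. They were found by matching the RefSeq accession that names each probe set to a gene symbol. Of the 10 genes 9 were found, each with 1 probe set, among 14351 genes and 26180 probe sets in all. Gstp1 had no match and is not analysed here. The matching of probe sets to genes used no measured value, and no filter on low values was applied. The 10 genes themselves were listed with earlier results of these data known.

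Each of 24 arrays holds the liver RNA of 1 mouse. Adult mice, 12 to 14 months old, underwent 30, 60 or 90 min of partial ischemia or a sham operation, and young mice, 4 to 5 weeks old, underwent the same 4 treatments, with 3 arrays in each of the 8 groups. The tissue was the median and left lobe, and no strain, sex or genotype is given in the labels used here. The titles write the times as 30/0, 60/0 and 90/0, and what the 0 stands for is not explained there. Each deposited value is a linear ratio in which the 3 same-age sham arrays average 1, for every gene and in either age. Adult and young sham livers therefore cannot be set against each other, nor can the abundance of one GST against that of another. Over the whole table the ratios ran from 0.0255 to 16.9. Groups are compared on log2 ratios with limma, fitted to all 14351 genes with a common estimate of the spread. Passing means an adjusted p (Benjamini-Hochberg, over all genes of a comparison) under 0.05, and an error is a standard error (SE) of the log2 difference unless SD is written.

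GSTs join the tripeptide glutathione to reactive electrophiles, which are then exported from the cell as conjugates. Hepatocytes are rich in these cytosolic enzymes, and many of their genes are induced by electrophiles through the factor Nrf2 and by foreign compounds through the receptors CAR, PXR and AhR. The alpha class also reduces lipid peroxides, Gsta4 prefers the lipid breakdown product 4-hydroxynonenal, and Gstz1 is the maleylacetoacetate isomerase of tyrosine breakdown. Ischemic liver is a setting in which lipid peroxides and glutathione loss have long been studied. Gsta2 lies at chr9:78331018-78347192, Gsta4 at chr9:78191966-78209349 and Gsta3 at chr1:21240565-21265575. The 4 mu genes form a cluster on chromosome 3, from the start of Gstm3 at 107963696 to the end of Gstm4 at 108045179. Gstt1 lies at chr10:75783813-75798584 and Gstz1 at chr12:87147161-87164723, all in RefSeq's GRCm38.p6. Members of a class are close in sequence, above all Gsta2 and its neighbour Gsta1, which is not analysed here. The sources used here do not say how probes that match several GSTs were handled, so values within the alpha and mu classes may be shared in part.

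The 250 bases upstream of the annotated start are shown for Gsta2, Gsta3, Gstm3 and Gstz1. These are 4 of the 5 members that fell in adult livers after 60 min, and for Gsta4 the RefSeq table has no entry. Each runs 5′ to 3′ on the strand of the gene, from RefSeq's GRCm38.p6. The start is that of the RefSeq table, and for Gsta2, Gsta3 and Gstz1 it lies just inside the gene's full span given above. Capitals mark a match on either strand to 1 of 3 motifs: the antioxidant response element TGACNNNGC of Nrf2, the AP-1 site TGANTCA, or the AhR core GCGTG.
Gsta2, chr9:78347146-78347395, minus strand: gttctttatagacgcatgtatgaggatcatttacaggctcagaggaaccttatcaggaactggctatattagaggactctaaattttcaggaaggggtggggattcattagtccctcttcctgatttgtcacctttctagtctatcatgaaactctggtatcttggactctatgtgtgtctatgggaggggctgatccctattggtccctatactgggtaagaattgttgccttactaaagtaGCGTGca
Gsta3, chr1:21240335-21240584, plus strand: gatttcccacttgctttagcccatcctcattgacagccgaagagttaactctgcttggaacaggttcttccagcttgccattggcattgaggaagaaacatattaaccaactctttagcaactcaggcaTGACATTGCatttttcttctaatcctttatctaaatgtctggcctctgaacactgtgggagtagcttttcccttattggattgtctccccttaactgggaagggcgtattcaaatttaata
Gstm3, chr3:107969175-107969424, minus strand: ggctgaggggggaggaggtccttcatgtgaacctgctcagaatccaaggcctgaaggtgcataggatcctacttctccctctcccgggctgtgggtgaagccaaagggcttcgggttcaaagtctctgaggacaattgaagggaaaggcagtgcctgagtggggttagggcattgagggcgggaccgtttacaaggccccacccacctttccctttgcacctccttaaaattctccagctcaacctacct
Gstz1, chr12:87146915-87147164, plus strand: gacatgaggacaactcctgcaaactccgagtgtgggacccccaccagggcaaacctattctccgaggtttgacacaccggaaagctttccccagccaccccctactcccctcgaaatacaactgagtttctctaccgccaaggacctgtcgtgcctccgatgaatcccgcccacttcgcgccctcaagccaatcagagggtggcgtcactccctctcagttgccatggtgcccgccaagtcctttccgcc
Gsta2 has an AhR core that begins 7 bases before its start. Gsta3 has an antioxidant response element that begins 121 bases before its start. In Gstm3 and Gstz1 none of the 3 motifs occurs in this window. Over windows of the same length at 27025 genes, 10.1% held the antioxidant element, 6.85% the AP-1 site and 28.3% the AhR core. Among the 9 listed genes with a window, Gstp1 included, these were held by 1, 1 and 3. An antioxidant element whose free letters read TCA would also hold the AP-1 site. The matches are letters in a sequence, and no binding was measured.

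In adult livers GST transcripts were low after 60 min of ischemia. Gsta2, Gsta3, Gsta4, Gstm3 and Gstz1 fell, 5 of the 9 measured, while 9.78% of all genes fell in the same comparison (1403 fell and 309 rose). Once every array was centred to a common median, 848 of all genes fell and 477 rose, and fewer than 5 members passed. Without that centring the other 4, Gstm1, Gstm2, Gstm4 and Gstt1, had log2 differences from -0.58 to -0.39 and adjusted p-values from 0.0583 to 0.0952 in limma. All 9 were below 0 with an unadjusted p under 0.05, against 24.8% of all genes. Of all genes 58.7% were below 0. The median log2 difference was -0.58 over the members, against -0.05 over all genes. In each of the 9 the highest 60 min array lay below the lowest sham array, which held for 25.9% of all genes. In bulk liver, fewer hepatocytes and less RNA per hepatocyte cannot be told apart.

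**Figure D1:**
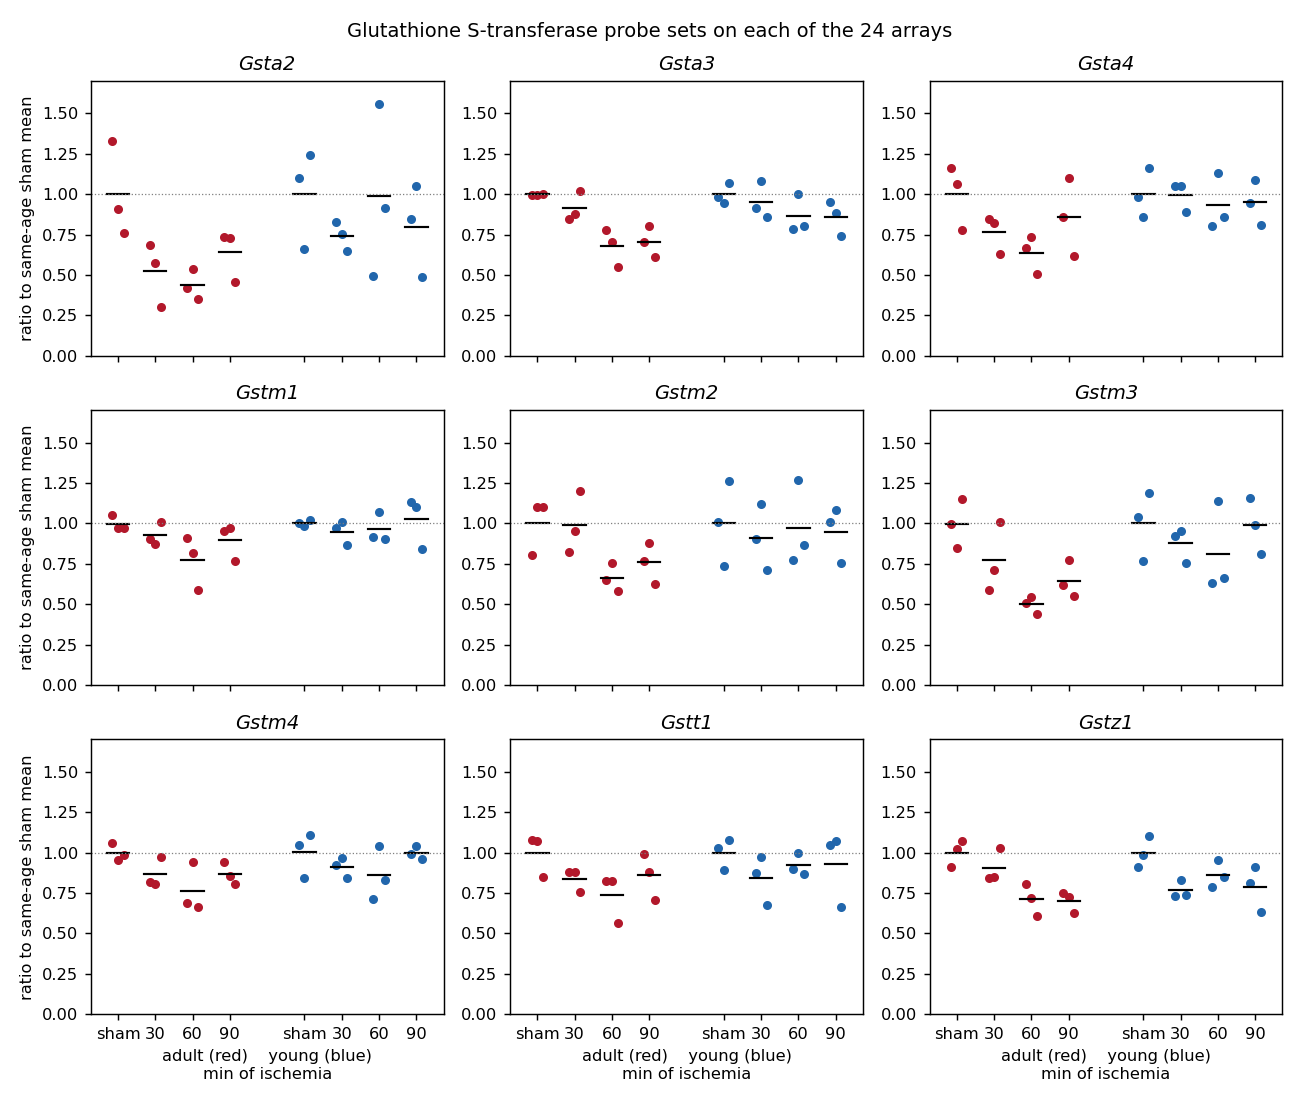
Ratio to the mean of the same-age sham arrays (linear axis from 0) for the 9 GST genes on each of the 24 arrays, by ischemia time in min. Points are single arrays, red for adult and blue for young livers, black bars are means of 3, and the dotted line is 1. The adult 60 min points lie below all adult sham points in every panel, while young points of ischemia and sham overlap in nearly all panels.

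Among the alpha genes, Gsta2 had ratios of 0.421, 0.536 and 0.353 after 60 min in adults, against 1.33, 0.907 and 0.761 in adult sham livers. All 3 ischemic livers were low, and the sham livers themselves were widely spread. The log2 difference was -1.18 ± 0.37 (adjusted p = 0.045 in limma), the 20th lowest of 14351 genes. Gsta2 was already low after 30 min, at 0.685, 0.577 and 0.304, and after 90 min it stood at 0.737, 0.727 and 0.456. At both times every ischemic liver lay below every sham liver. The log2 differences from sham were -0.98 ± 0.37 at 30 min (adjusted p = 0.461) and -0.64 ± 0.37 at 90 min (adjusted p = 0.258), neither of which passed.

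Gsta3 had ratios of 0.777, 0.706 and 0.551 after 60 min, against 0.998, 0.997 and 1 in adult sham livers. The sham livers were nearly identical here, with an SD of 0.00384 (n = 3), whereas the SD after 60 min was 0.115. Its log2 difference was -0.58 ± 0.13 (adjusted p = 0.0295). It was also low after 90 min, at 0.707, 0.802 and 0.612, a log2 difference of -0.51 ± 0.13 (adjusted p = 0.0321). After 30 min Gsta3 had 0.849, 0.878 and 1.02, and these livers overlapped sham.

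Gsta4 had ratios of 0.669, 0.736 and 0.508 after 60 min, against 1.16, 1.06 and 0.777 in adult sham livers. The groups were apart by a small margin, since 1 sham liver lay close to the highest ischemic one. The log2 difference was -0.65 ± 0.20 (adjusted p = 0.0436). After 90 min Gsta4 had 0.857, 1.10 and 0.618, which overlapped sham, with a log2 difference of -0.24 ± 0.20 (adjusted p = 0.438). After 30 min it had 0.849, 0.819 and 0.63.

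Of the 4 mu genes Gstm3 passed. Its ratios were 0.509, 0.546 and 0.441 after 60 min in adults, against 0.999, 0.847 and 1.15 in sham livers. The 3 ischemic livers lay close together (SD 0.0534, n = 3), well under sham. The log2 difference was -1.0 ± 0.22 (adjusted p = 0.0285), the 41st lowest of all genes and the lowest p of the family. After 90 min Gstm3 had 0.617, 0.772 and 0.549, all below sham, at -0.63 ± 0.22 on the log2 scale (adjusted p = 0.0781). After 30 min it had 0.59, 0.712 and 1.01, so 1 liver stayed within the sham range.

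The other 3 mu genes did not pass. Gstm2 had 0.652, 0.757 and 0.583 after 60 min, against 0.803, 1.1 and 1.1 in adult sham livers, a log2 difference of -0.58 ± 0.22 (adjusted p = 0.0769). Gstm1, the main mu enzyme of mouse liver, had 0.912, 0.816 and 0.591, against 1.05, 0.973 and 0.972 in sham livers (log2 -0.39 ± 0.14, adjusted p = 0.0603). Gstm4 had 0.689, 0.943 and 0.664, against 1.06, 0.953 and 0.983 in sham livers (log2 -0.40 ± 0.14, adjusted p = 0.0583). In Gstm1 and Gstm4 1 of the 3 ischemic livers was close to sham. After 90 min these 3 genes were at -0.40, -0.16 and -0.21 on the log2 scale, with adjusted p-values from 0.239 to 0.439. Their ratios then ran from 0.627 to 0.88 for Gstm2, from 0.767 to 0.971 for Gstm1 and from 0.804 to 0.94 for Gstm4. After 30 min Gstm2 had 0.823, 0.954 and 1.2, Gstm1 had 0.905, 0.875 and 1.01, and Gstm4 had 0.82, 0.808 and 0.976. At 30 min all 3 genes overlapped sham.

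Gstt1, a theta enzyme that acts on small halogenated compounds, had 0.824, 0.825 and 0.564 after 60 min, against 1.08, 1.07 and 0.852 in adult sham livers. The groups did not overlap, and the log2 difference of -0.45 ± 0.18 did not pass (adjusted p = 0.0952). Gstt1 had 0.992, 0.883 and 0.706 after 90 min and 0.882, 0.881 and 0.754 after 30 min, overlapping sham at both times. Gstz1 had 0.806, 0.72 and 0.608 after 60 min and 0.753, 0.728 and 0.628 after 90 min, against 0.908, 1.02 and 1.07 in sham livers. Its log2 differences were -0.50 ± 0.13 at 60 min (adjusted p = 0.0319) and -0.51 ± 0.13 at 90 min (adjusted p = 0.0307). Gstz1 was thus as low after 90 as after 60 min, and after 30 min it had 0.844, 0.849 and 1.03.

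After 90 min in adults, Gsta3 and Gstz1 fell, 2 of 9 members, while 6.28% of all genes fell. All 9 members were below 0, as were 56.5% of all genes, and 3 of them had an unadjusted p under 0.05 (20.3% of all genes were lower at that level). The median log2 difference was -0.40 over the members, against -0.04 over all genes. The ischemic livers lay below all sham livers in 6 of 9 members and in 26.4% of all genes. After 30 min in adults 0 of 9 members and 0% of all genes passed in limma. At an unadjusted p under 0.05, 1 member was lower, Gsta2, and 6.62% of all genes. Gsta2 was also the 1 member whose ischemic livers lay below all sham livers, which held for 6.29% of all genes. All 9 members were below 0 (8 with arrays centred or quantile normalized), as were 57% of all genes, with a median of -0.21 over the members. With array weights 1 member, Gsta2, passed in limma at 30 min, at -0.84 (adjusted p = 0.045). So did many other genes, 1692 of 14351 falling and 648 rising under that setting. The weights of the 3 adult 30 min arrays were 0.854, 4.79 and 0.256, so replicate 2 counted far more than the others.

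**Figure D2:**
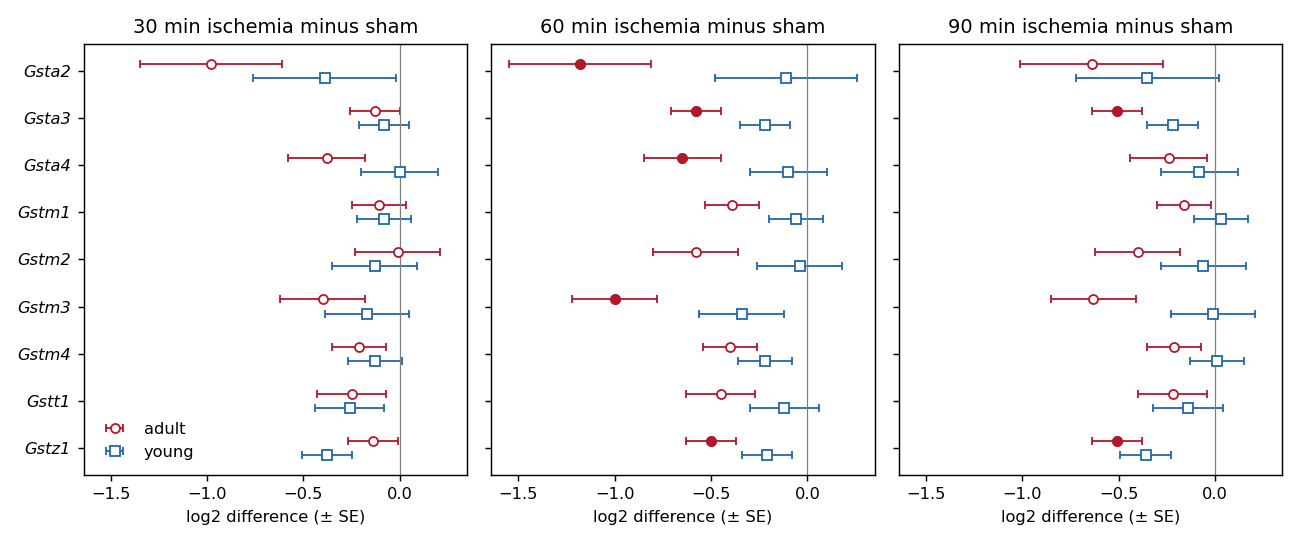
Log2 difference from same-age sham with its SE for the 9 GST genes at 30, 60 and 90 min, in adult (red circles) and young livers (blue squares). Filled symbols passed at an adjusted p under 0.05. Filled symbols are found only among adults, 5 at 60 min and 2 at 90 min, and the adult symbol lies left of the young one for all 9 genes at 60 min.

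These calls rested on few arrays. With replicate 2 or replicate 3 of the adult 60 min group left out, 0 members passed in limma at 60 min. Leaving out replicate 1 of that group left 5, but not the same 5. Gsta2 then had an adjusted p of 0.0657, and Gstm1 passed in its place (adjusted p = 0.0281). Leaving out replicate 1 or replicate 3 of adult sham also left 0, and leaving out its replicate 2 left 2. At 90 min the count was 1 when replicate 1 of adult sham was left out and 0 for each of its replicates 2 and 3 and for each of the 3 arrays after 90 min. The log2 differences moved less than the calls. With any 1 of the 6 arrays left out, Gstm3 at 60 min lay between -1.11 and -0.89, Gsta2 between -1.35 and -0.95, Gsta3 between -0.68 and -0.43, Gsta4 between -0.82 and -0.49 and Gstz1 between -0.59 and -0.39. Quantile normalization left 0 of 9 passing at either time and brought Gsta3, Gsta4 and Gstz1 at 60 min to -0.35, -0.41 and -0.26. It brought the median of the 9 members to -0.31 at 60 min and -0.20 at 90 min, with all genes at 0.02 at both times.

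**Figure D3:**
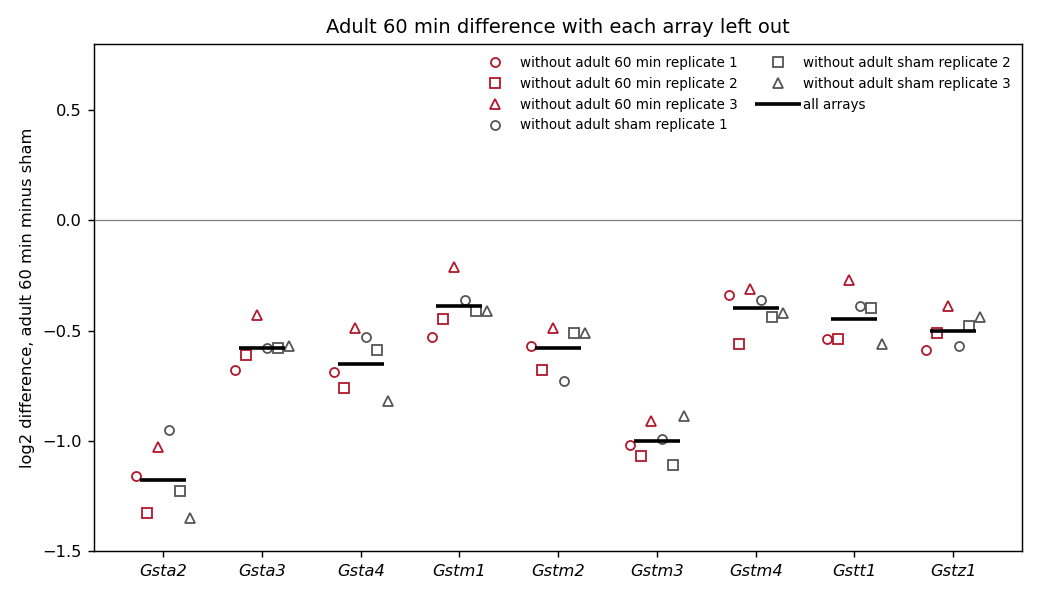
Log2 difference between adult 60 min and adult sham livers for each of the 9 GST genes with all arrays (black bars) and with each of the 6 arrays left out (red symbols for 60 min arrays, grey for sham arrays). All symbols are below 0, and the red triangles, without 60 min replicate 3, are the nearest to 0 in 7 of 9 genes.

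The sample titles carry a code whose meaning the labels do not give. In adults the first part of this code takes 3 values, each shared by 1 sham and 1 array at 60 min. Within each of them every member was below 0 at 60 min: Gsta2 between -1.66 and -0.76, Gsta3 between -0.87 and -0.36, Gsta4 between -0.80 and -0.53, Gstm3 between -1.39 and -0.63 and Gstz1 between -0.82 and -0.17. Gstm4 came nearest to 0, at -0.01 in 1 of the 3. At 90 min the code is shared with sham in 2 cases, with 9 and 8 of 9 members below 0, and at 30 min in 3, with 8, 9 and 6 below 0. With that part of the code as a block, 6 members passed at 60 min, Gstt1 being the added one (adjusted p = 0.0455). In young livers the within-code differences ran in both directions at 60 and 90 min. At 60 min 2 and 6 of 9 members were below 0 in the 2 shared codes, where Gsta2 was at 0.51 and 0.48 and Gstm2 at 0.33 and 0.24. At 90 min 4 and 6 of 9 were below 0, and at 30 min 9 of 9 in the 1 shared code.

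The same arrays were low across members. Adult 60 min replicate 3 had the lowest ratio of its group in 9 of 9 members, and so had adult 90 min replicate 3. In young livers 90 min replicate 3 was lowest in 9 of 9, and 30 min replicate 3 and sham replicate 2 were lowest in 8 of 9. Markers of hepatocytes, which make most of these enzymes, had medians over 13 genes of -0.48, -0.41, -0.26 and -0.27 on the log2 scale on the 4 ischemia arrays just named, the lowest of their groups, and 0.01 on young sham replicate 2. On adult 60 min replicates 1 and 2 they were at -0.02 and -0.25, where the GST medians were -0.54 and -0.44, against -0.83 on replicate 3. In the adult comparison at 60 min the hepatocyte markers had a median of -0.28, with 12 of 13 below 0 and 0 of 13 passing. Markers of Kupffer cells, the liver macrophages, had a median of -0.54 with 1 of 12 falling at 60 min (by array -0.18, -0.71 and -1.13, against -0.22, -0.31 and 0.40 in adult sham), and one of -1.23 with 11 of 12 falling at 90 min. Endothelial, stellate cell, bile duct and T or NK cell markers had medians of -0.14, -0.01, 0.06 and 0.17 at 60 min, and of these 0 of 12, 0 of 13, 0 of 10 and 0 of 13 passed. Neutrophil and erythroid markers had medians of 0.06 and 0.08, with 0 of 10 and 0 of 4 passing. Of all genes 9.78% fell at 60 min and 6.28% at 90 min. The part of these marker shifts in the GST values was not tested.

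In young livers 0 of 9 members passed at 30, 60 or 90 min, while 0.0488%, 0.0139% and 0.111% of all genes fell in limma. At an unadjusted p under 0.05, 1, 0 and 1 of 9 members were lower, against 6.08%, 6.64% and 5.6% of all genes. Below 0 lay 9, 9 and 7 members, against 56.6%, 55.3% and 57.6% of all genes, but with quantile normalization 7, 6 and 5 and with array weights 5, 6 and 2. The differences within the title code at 60 min, given above, also ran in both directions. The medians of the members were -0.13, -0.12 and -0.08 on the log2 scale. Gsta2 was the most variable, with 0.497, 1.56 and 0.917 after 60 min, against 1.1, 0.659 and 1.24 in young sham livers. Ischemic and sham livers overlapped for it. Gstm3 also overlapped sham, with 0.631, 1.14 and 0.661 after 60 min and 1.16, 0.993 and 0.811 after 90 min, against 1.04, 0.77 and 1.19 in sham livers.

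Gstz1 was the member with the lowest p in young livers. It had 0.734, 0.832 and 0.739 after 30 min and 0.815, 0.912 and 0.634 after 90 min, against 0.914, 0.983 and 1.1 in young sham livers. Neither group overlapped sham, which among the members held for Gstz1 alone at both times and for 9.49% and 9.5% of all genes. At 60 min it held for 0 members and 7.78% of all genes. The log2 differences were -0.38 ± 0.13 (adjusted p = 0.354) and -0.36 ± 0.13 (adjusted p = 0.357). After 60 min Gstz1 had 0.79, 0.952 and 0.851, at -0.21 ± 0.13. Gsta3 was at -0.08, -0.22 and -0.22 at the 3 times, and Gstm1, Gstm4 and Gstt1 lay between -0.26 and 0.03. Gsta4 had 0.806, 1.13 and 0.862 after 60 min, against 0.983, 0.859 and 1.16 in young sham livers, and Gstm2 had 0.773, 1.27 and 0.869, against 1.01, 0.736 and 1.26. Both overlapped sham.

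Adult and young responses were then set against each other, time by time, as the difference of the log2 differences from sham. At 60 min it was below 0 in 9 of 9 members and 59.4% of all genes, and no member passed. It was -0.66 for Gstm3 (95% interval -1.32 to -0.01, adjusted p = 0.704), -1.06 for Gsta2 (-2.16 to 0.03), -0.54 for Gsta4 (-1.13 to 0.05) and -0.35 for Gsta3 (-0.75 to 0.04). For Gstm4 the interval was -0.59 to 0.23 and for Gstz1 -0.68 to 0.10. At 90 min all 9 were below 0 again, as were 53.6% of all genes, from -0.63 for Gstm3 (-1.28 to 0.03) to -0.09 for Gstt1, and at 30 min 6 of 9 were below 0, against 50.7%. In these 3 comparisons 0% of all genes passed in limma. At an unadjusted p under 0.05, 0, 1 and 0 members were counted at 30, 60 and 90 min, against 2.1%, 6.81% and 11.2% of all genes. With array weights 1 member, Gstm3, passed at 90 min, at -0.85 (adjusted p = 0.0411), among 1383 of 14351 genes that passed under that setting.

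Between ischemia times in adults, 9 of 9 members were lower at 60 than at 30 min, against 59.9% of all genes, and 1 of 9 was lower at 90 than at 60 min, against 44.3%. In both steps 0 members and 0% of all genes passed in limma. From 30 to 60 min the differences with an unadjusted p under 0.05 numbered 5 of 9, against 8.78% of all genes, and included Gstm3 at -0.60 ± 0.22 and Gsta3 at -0.44 ± 0.13 (adjusted p = 0.563 for both). The livers after 60 min lay below those after 30 min in 4 members, Gsta3, Gstm2, Gstm3 and Gstz1, and in 8.06% of all genes. From 60 to 90 min 0 members and 3.19% of all genes had an unadjusted p under 0.05. Gsta2 was at 0.54 ± 0.37, Gsta4 at 0.41 ± 0.20 and Gstm3 at 0.36 ± 0.22, while Gstz1 was at -0.01 ± 0.13. In Gstm3 the 3 livers after 90 min lay above the 3 after 60 min, as in 5.53% of all genes. The margin was very small, with 0.549 the lowest after 90 min and 0.546 the highest after 60 min. In young livers 4 and 5 of 9 members were below 0 in these steps, against 47.7% and 50.8% of all genes. Of members 0 passed in either, 0 had an unadjusted p under 0.05 (5.16% and 9.33% of all genes), and 0% of all genes passed. Each pair of steps shares the 60 min arrays.

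Among 16 further glutathione transferase genes and relatives, 4 fell in adults at 60 min and 5 at 90 min, against 9.78% and 6.28% of all genes. The mu gene Gstm6 had 0.579, 0.586 and 0.571 after 60 min, against 0.733, 1.19 and 1.07 in sham livers, a log2 difference of -0.76 ± 0.19 (adjusted p = 0.0299). The theta gene Gstt3 fell by 0.99 ± 0.24 on the log2 scale at 60 min and by 0.80 ± 0.24 at 90 min. Gstk1, the mitochondrial and peroxisomal kappa enzyme, fell by 0.54 at 60 and 0.51 at 90 min, and the omega enzyme Gsto1 fell by 0.54 at 60 min. Gstm5 and Alox5ap, which serves leukotriene synthesis, fell at 90 min by 0.50 and 0.46. The membrane-bound Mgst2 and Mgst3 were at 0.13 and -0.01 at 60 min, the prostaglandin D synthase Hpgds at 0.07 and the pi gene Gstp3 at -0.05. Mgst1, also membrane-bound, did not pass at 60 min. Its ischemic livers lay below all sham livers, which held for 25.9% of all genes. Mgst1 had 0.864, 0.855 and 0.68, against 0.98, 1 and 1.02 in adult sham livers. The list had a median of -0.20 at 60 min, against -0.58 for the 9 members.

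Genes that supply or use glutathione were lower in part. Of 23 measured, 8 fell in adults at 60 min and 3 at 90 min, with medians of -0.27 and -0.23. Of all genes 9.78% fell at 60 min and 6.28% at 90 min. The glutaredoxins Glrx and Glrx2 fell by 0.83 and 0.44 at 60 min, the peroxidase Gpx1 by 0.37, and Glo1 and Hagh, which clear methylglyoxal, by 0.46 and 0.52. Among 18 Nrf2 targets 6 fell at 60 min, with a median of -0.36 and 18 of 18 below 0, Txnrd1 by 0.45 and Ugdh by 0.67 among them. Of 16 targets of the xenobiotic receptors 12 fell at 60 min, with a median of -0.60. Cyp2b10, the standard CAR target, fell by 3.44 ± 0.73, and Cyp1a2, an AhR target, by 0.44. The fall of Cyp2b10 was not particular to adults. In young livers after 30 min it was at -4.01 ± 0.73 (adjusted p = 0.0405 in limma), and no other gene of this list passed there. Of 16 regulators of GST genes 2 fell, a share near the 9.78% of all genes. They were the receptor gene Ahr, by 0.97, and the Nrf2 partner Mafg, by 0.40. Of 8 exporters of conjugates 3 fell, Abcc2 by 0.54, Abcc4 by 0.72 and Abcg2 by 0.58. Some of these lists share genes, so their counts are not separate. Abcc4 is also among the Nrf2 targets and is counted in both lists. None of these lists had a gene that rose in adults at 60 or 90 min.

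**Figure D4:**
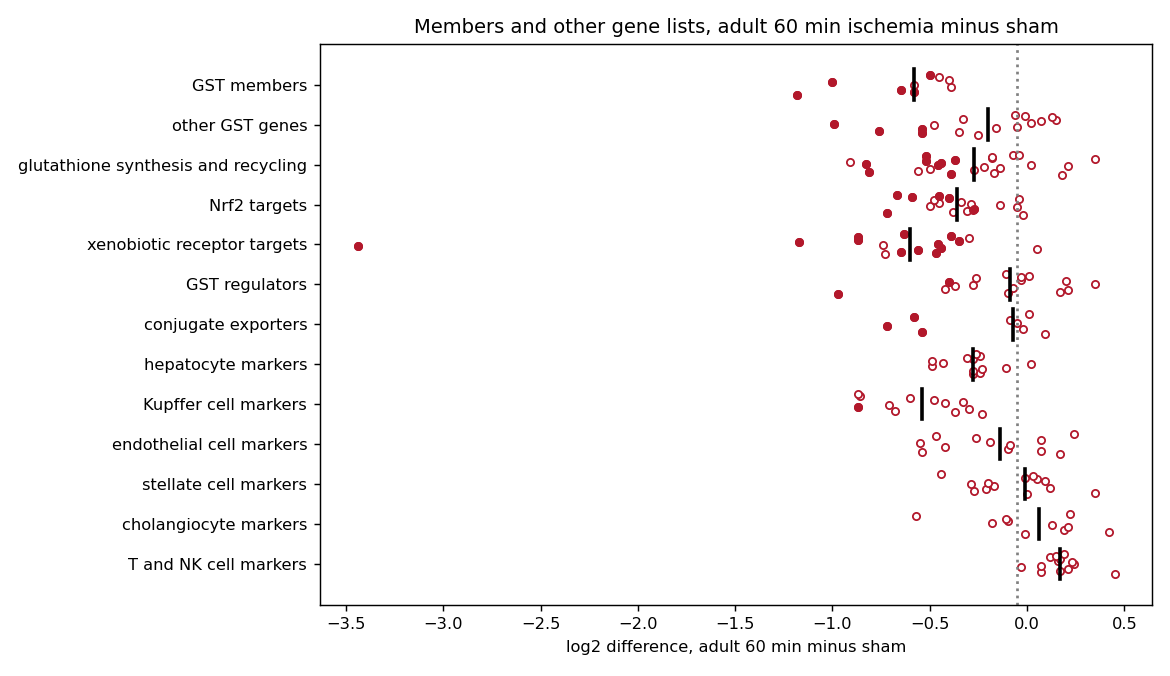
Log2 difference between adult 60 min and adult sham livers for each gene of the GST members and 12 other lists, with filled points for genes that passed, black bars for list medians and a dotted line at the median of all genes (-0.05). The members have a median of -0.58, near that of the xenobiotic receptor targets (-0.60) and below that of the hepatocyte markers (-0.28).

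The genes most like Gsta2 and Gstm3, the members with the largest log2 difference, were sought over the 6 differences from sham, by the root mean square of the gaps. Nearest to Gstm3 were Gnpnat1, Selenos, Ufl1, Pnrc2 and Hpgd, with root mean square gaps of 0.07 to 0.09 on the log2 scale. Selenos, an endoplasmic reticulum selenoprotein, was at -0.38, -0.99 and -0.72 at 30, 60 and 90 min in adults, where Gstm3 was at -0.40, -1.0 and -0.63. Gsta2 had no neighbour as close: Fbxo30, Cyp39a1, Creld2, Uap1 and Dnaja1 had gaps of 0.25 to 0.27. The 6 differences share the sham arrays of their age, so the likeness is a description of these arrays.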

How the data were processed

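Liver RNA of 24 mice was hybridized to 3′ expression arrays, 1 array per mouse. Per the submitters' processing notes, RMA was used, with no version given. The deposited numbers are linear ratios: for every probe set the 3 sham arrays of an age average 1, within 2e-07. Array design, build and scan batches are not given in the sources used here, and the ratios keep no brightness, so the number of arrays, 3 per group, limits the precision.

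Groups came from the sample titles. RefSeq accessions were paired with symbols from a RefSeq table of GRCm38.p6: 15228 probe sets had 1 symbol and 10952 none. For genes with several probe sets the first was kept by accession type and number, which left 14351 genes. A linear model of 8 group means on the log2 ratios (16 residual and 4.53 prior degrees of freedom, two-sided tests) came from limma 3.58.1 under R 4.3.3. The 13 comparisons were ischemia against sham, adult against young responses, and successive ischemia times. A test was run on simulated data for adults at 60 min, over 14351 genes. Of 100 genes lowered by 1 log2 unit 92% were detected, and of 100 lowered by 2 log2 units 100%. Of the unaltered genes 12 were called. Smaller shifts, such as the -0.58 to -0.39 of the members that did not pass there, were not simulated.

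The members, gene lists and comparisons were chosen with earlier results of these data known. By rule, all members are named, and the 5 nearest genes of 2 members. In some of the other lists only part of the genes that passed is named, and some named genes differed little. That choice followed no fixed rule. Alternatives were testing every probe set, averaging probe sets within genes, quantile normalization, median-centred arrays, either part of the title code, 1 estimated weight per array, a robust prior, log2(ratio + 0.1), 1 age alone and each array left out. The result of 1 further gene list is not reported here.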

Additional observations from a re-analysis of the deposited data

How the results depend on the processing

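Over the 13 comparisons and the alternatives other than leaving out arrays, 118 of 127 counts of members that passed stayed within 1.5 times the reported count. In 11 of the comparisons the reported count was 0, so most of these agreements were 0 against 0. The 7 called values kept their direction under all of these alternatives and passed in 55 of 70 cases. For adults at 60 min, where 5 of 9 passed, the count was 3 with every probe set tested, 3 with arrays centred on their median and 3 with the adult arrays alone. It was 0 after quantile normalization, where 0 of all genes passed. It was 9 when the number in the title code was a covariate, where 2626 of all genes fell and 574 rose, in place of 1403 and 309. That number was 5 on every adult sham array and 4 on every adult 60 min array, so here it cannot be told apart from treatment. The slope for it came from young sham, young 30 min and adult 90 min arrays, the groups in which it varied. The count of 9 therefore does not show what the members would do with that number held equal. For adults at 90 min, where 2 passed, the count was 0 after quantile normalization and 0 with the adult arrays alone. Array weights gave 1 for adults at 30 min (Gsta2, adjusted p = 0.045) and 1 for the age difference at 90 min (Gstm3, adjusted p = 0.0411), in place of 0, while 1692 of all genes fell and 648 rose at 30 min and 1383 passed for the age difference, in place of 0. With each array left out in turn the count ran from 0 to 5 for adults at 60 min, from 0 to 1 for adults at 90 min, and was 0 in the other 11 comparisons. The cause of these changes was not tested. The labels give no replicate numbers, and the first part of the title code was fitted as a block. The filter on dim probe sets and another background correction need brightness and were not run.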
